A study of Oryctolagus cuniculus with 34 samples.

Results

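Repaired supraspinatus muscle was compared between 8 weeks and 1 week post-repair. The comparison used 7 of the 34 libraries of the series: the repaired left shoulder of rabbits 1, 2 and 4 at 8 weeks and of rabbits 5 to 8 at 1 week. Members were all libraries of repaired muscle at these 2 times, except that of rabbit 3 at 8 weeks, which was left out for its quality, as the study's methods also did for 1 repaired sample of 8 weeks after the check of reads. The supraspinatus is the rotator cuff muscle most often torn in people. Every rabbit was a skeletally mature female New Zealand White, about 6 months old, and every repaired shoulder had gone through 8 weeks of tenotomy (the tendon cut from the humerus, with a drain sewn to its stump against scarring) before the tendon was sutured back through bone tunnels. The groups therefore differed in the weeks after repair (8 or 1) and in the age gained over them, and not in the surgery. The right shoulder of the same rabbits gave 8 control libraries, 4 at each time; the study's methods call it unoperated, while the labels mention a sham skin cut. Each library came from 1 shoulder of 1 rabbit, from the posterior lateral region of the muscle, which was chosen as the most affected region, and different rabbits stand at the 2 times.

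Detached rotator cuff muscle shortens and loses fiber volume while connective tissue and fat build up between the fibers. Reattachment loads it again, and inflammation and matrix deposition by fibroblasts and fibro-adipogenic progenitors can follow. The study reports that repair alone did not bring the growth or regenerative response it had hypothesized. Oxidative phosphorylation passes electrons along complexes I to IV of the mitochondrial respiratory chain, while ATP synthase makes ATP from the proton gradient. RNA from a piece of whole muscle mixes all of these cells, so fewer cells of a type and less RNA per cell cannot be told apart.

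The 7 repaired libraries held 13262913 to 21686112 counts on genes and the 8 control libraries 15359593 to 28395188. The library of rabbit 3 held 8756033 and correlated with the other repaired libraries of 8 weeks at only r = 0.651 to 0.703 across genes, against 0.950 to 0.969 among those 3. The 10 most abundant genes took 25.5% to 30.3% of the counts in repaired muscle at 8 weeks, 21.5% to 27.2% at 1 week and 27.9% to 30.9% in controls. Scaling by TMM allowed for this, and the counts below are given as TMM-scaled CPM, the counts of a gene relative to the scaled library total, unless stated. Markers of skeletal muscle were abundant throughout: DES, the muscle intermediate filament, lay between 2691 and 5175 CPM in the 7 repaired libraries, and ATP2A1, the calcium pump of fast fibers, between 3012 and 29041.

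In a principal component analysis of the 15 libraries, the first component held 35.0% of the variance. Repaired muscle at 1 week lay at 33 to 65.2 on it, repaired muscle at 8 weeks at -5.05 to 26.9, and the 8 controls at -43.5 to -6.91. The 3 libraries of 8 weeks thus stood between the controls and the libraries of 1 week without overlapping either group, although rabbit 1 at -5.05 was close to the highest control. Among them, rabbit 4 lay closest to the libraries of 1 week.

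**Figure D1:**
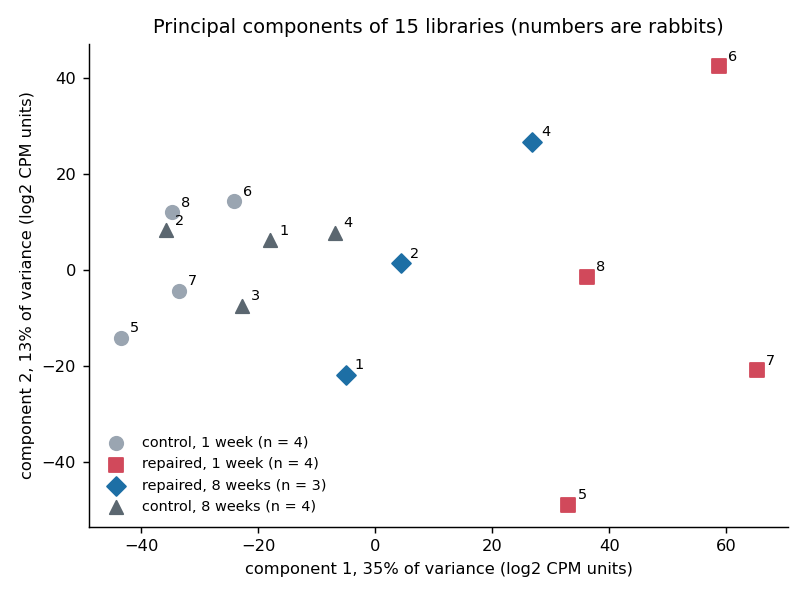
Principal components of log2 CPM over the 15 libraries, with component 1 (35.0% of variance) on the horizontal and component 2 on the vertical axis, each point a library numbered by its rabbit. The 3 repaired libraries of 8 weeks (diamonds) lie between the 8 controls on the left and the 4 repaired libraries of 1 week (squares) on the right.

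No gene passed the test between 8 weeks and 1 week. Of 12112 genes tested, each over 1 CPM in 1 or more of the 7 libraries, 0 (0%) had an adjusted p under 0.05 in limma-voom, and the lowest adjusted p was 0.0879. At an unadjusted p under 0.05 there were 1381 genes, of which 775 (6.4%) were higher and 606 (5%) lower at 8 weeks. edgeR's quasi-likelihood test called 0 as well, with 1633 genes at an unadjusted p under 0.05. Counting genes whose groups did not overlap, 772 (6.37%) were higher in all 3 libraries of 8 weeks than in all 4 of 1 week, and 791 (6.53%) were lower in all 3. With 3 against 4 libraries an exact permutation test cannot give a 2-sided p below 0.0571 for any single gene.

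The count of calls differed between tools and between the sets of libraries fitted. DESeq2 on the same 7 libraries called 176 genes higher (1.45%) and 123 lower (1.02%) at 8 weeks. limma-voom on all 15 libraries as 4 groups called 204 higher (1.68%) and 70 lower (0.578%), and 191 of these 274 genes were also among the 299 of DESeq2. The common biological coefficient of variation in edgeR was 0.310 in the repaired libraries against 0.191 in the controls, and the fit of 15 libraries takes its spread from both. A gene named below as passing in the fit of 15 libraries had not passed in the 7 libraries alone. Those 7 libraries are also part of that fit, so passing there is not separate support for genes picked from them. As the controls spread less, that fit can understate the error of repaired muscle, and it treats both shoulders of a rabbit as independent. A fit of 33 libraries of all times called 11 genes, GADD45A among them. TMM also set the balance of directions: when libraries were scaled only to their totals, a choice added after the data were seen, the median log2 fold change (log2FC) of all genes moved from -0.03 to -0.37, and 150 genes were higher and 2364 lower without overlap. Directions below are therefore relative to the bulk of genes.

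**Figure D2:**
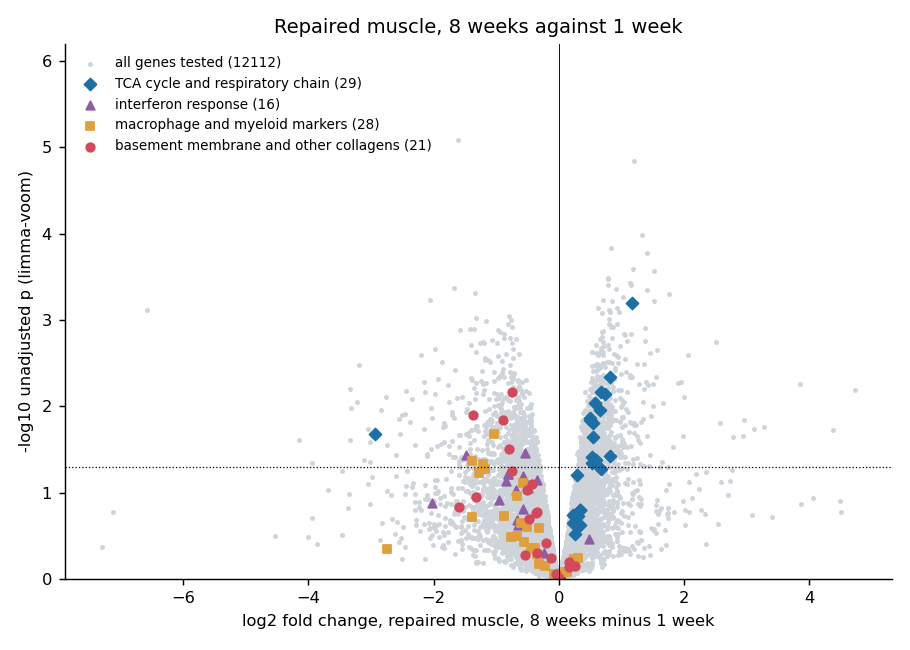
Log2FC between 8 weeks and 1 week in repaired muscle (horizontal) against -log10 of the unadjusted p of limma-voom (vertical) for 12112 genes in gray, with 4 gene lists in color and the dotted line at an unadjusted p of 0.05. Of 29 genes of the TCA cycle and respiratory chain, 27 lie right of 0, while 15 of 16 interferon response genes, 24 of 28 macrophage genes and 17 of 21 basement membrane and other collagen genes lie left of it, and no gene passed after adjustment.

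The named genes with the lowest p that did not overlap between the groups were CUEDC1, PRIMPOL, TUBB6, ATP5IF1, TRAK2, GHITM, GRB14, CALHM5, SMTNL2 and ENAH, each at an adjusted p of 0.319. CUEDC1, which carries a ubiquitin-binding domain, measured 154, 131 and 130 CPM at 8 weeks in rabbits 1, 2 and 4 and 62.6, 53.2, 51.8 and 85.7 at 1 week in rabbits 5 to 8. Its controls lay at 135 to 162, so the libraries of 8 weeks stood at or just under the control range and those of 1 week far under it. The log2FC was 1.14 ± 0.20 (SE), and in the fit of 15 libraries it passed with an adjusted p of 0.00511. TUBB6, a beta tubulin, went the other way, with 28.4, 22 and 29.7 CPM at 8 weeks against 94.3, 66.5, 68 and 45.8 at 1 week. Here too the libraries of 8 weeks were close to the controls, which lay at 18.3 to 29.2, and the libraries of 1 week were all above both. Its log2FC was -1.34 ± 0.24, and the fit of 15 libraries gave an adjusted p of 0.0117.

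Several others of these genes have roles in mitochondria. ATP5IF1, which blocks ATP hydrolysis by ATP synthase, measured 345, 254 and 222 CPM at 8 weeks and 104, 142, 97.4 and 144 at 1 week, with a log2FC of 1.17 ± 0.22. Its controls lay at 153 to 239, so rabbits 1 and 2 at 8 weeks stood above them. TRAK2, an adaptor that couples mitochondria to motor proteins, lay at 50.3 to 56.3 CPM at 8 weeks and 33.1 to 35.9 at 1 week (log2FC 0.62 ± 0.12). Its controls lay at 47.9 to 68.9 and were 0.26 higher at 8 weeks. GHITM, a protein of the inner mitochondrial membrane, lay at 153 to 210 CPM against 87.9 to 106 (log2FC 0.81 ± 0.16), with controls at 162 to 247. All of these passed in the fit of 15 libraries, with adjusted p of 0.0143, 0.0117 and 0.0234. None did in the fit of 33 libraries, with adjusted p of 0.0877, 0.174 and 0.0645.

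The remaining 5 covered other functions. GRB14, an adaptor of the insulin receptor, had a log2FC of 0.69 ± 0.14. ENAH, a regulator of actin filament growth, had 0.93 ± 0.19, and CALHM5, of the calcium homeostasis modulator channels, had 0.81 ± 0.16. In the controls both were also higher at 8 weeks without overlap, ENAH by 0.42 and CALHM5 by 0.44. CALHM5 lay at 12.6 to 17.5 CPM at 8 weeks and 7.36 to 8.51 at 1 week, against 4.75 to 8.66 in controls. PRIMPOL, a primase and polymerase that restarts stalled replication forks, was near the minimum of expression, at 2.73 to 4.14 CPM against 1.14 to 1.29. SMTNL2, a smoothelin-like protein, was lower at 8 weeks, at 22.8 to 40.5 CPM against 50.9 to 81.8, although its controls also differed by -0.52 between these times. Those controls lay at 35.5 to 83.4 CPM, with the libraries of 1 week inside this range and rabbits 2 and 4 of 8 weeks under it. For TRAK2 and GHITM the log2FC changed sign, to -0.26 and -0.19, when the library of rabbit 3 was kept. Among genes with no symbol here, ENSOCUG00000025513 (log2FC -1.60 ± 0.17) and ENSOCUG00000005526 (1.20 ± 0.13) had the lowest p of all, each with an adjusted p of 0.0879.

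Genes of the TCA cycle and the respiratory chain were higher at 8 weeks as a list. Of 29 measured, 27 had a log2FC above 0, 14 of them at an unadjusted p under 0.05, and 13 (44.8%) were higher in every library of 8 weeks than in every library of 1 week, against 6.37% of all genes. No member was lower without overlap. The median log2FC was 0.50, against -0.03 for all genes, and it lay between 0.38 and 0.54 when each library was left out. In the controls the same list had a median of -0.11 between the 2 times, with 26 of 29 below 0. None of the 29 passed in the 7 libraries, and 5 passed in the fit of 15. Without TMM, 17 were above 0 and 12 below. This list, like those that follow, was chosen with earlier results of these data known, so its share is a description and not a test.

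Subunits of cytochrome c oxidase, the last complex of the chain, had some of the largest differences. COX5A measured 345, 329 and 245 CPM at 8 weeks and 205, 134, 149 and 205 at 1 week, while the controls lay at 295 to 396. The libraries of rabbits 1 and 2 were within the control range, that of rabbit 4 was under it, and those of 1 week were all lower still. The log2FC was 0.82 ± 0.21 (adjusted p = 0.338, and 0.0344 in the fit of 15 libraries). COX4I1, another subunit, lay at 615 to 724 CPM against 347 to 513 (log2FC 0.68 ± 0.19), and COX10, needed to make the heme of this complex, at 27.7 to 38.6 against 13.6 to 22 (log2FC 0.74 ± 0.21). Of other parts of the chain, ATP5F1E of ATP synthase had a log2FC of 0.65 ± 0.20, and NDUFAB1 and NDUFB8 of complex I had 0.58 ± 0.17 and 0.55 ± 0.20. COX4I1, ATP5F1E and NDUFAB1 passed in the fit of 15 libraries. A second gene identifier that carries the symbol ATP5IF1 had a smaller log2FC, 0.54 ± 0.22, and reads of near copies could have been split between them. The clearest exception, NDUFAF7, an assembly factor of complex I, was close to the detection limit, with 3.12, 0 and 0.186 CPM at 8 weeks against 1.53 to 1.92 at 1 week. Its log2FC of -2.93 had a counterpart of -3.45 in the controls.

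**Figure D3:**
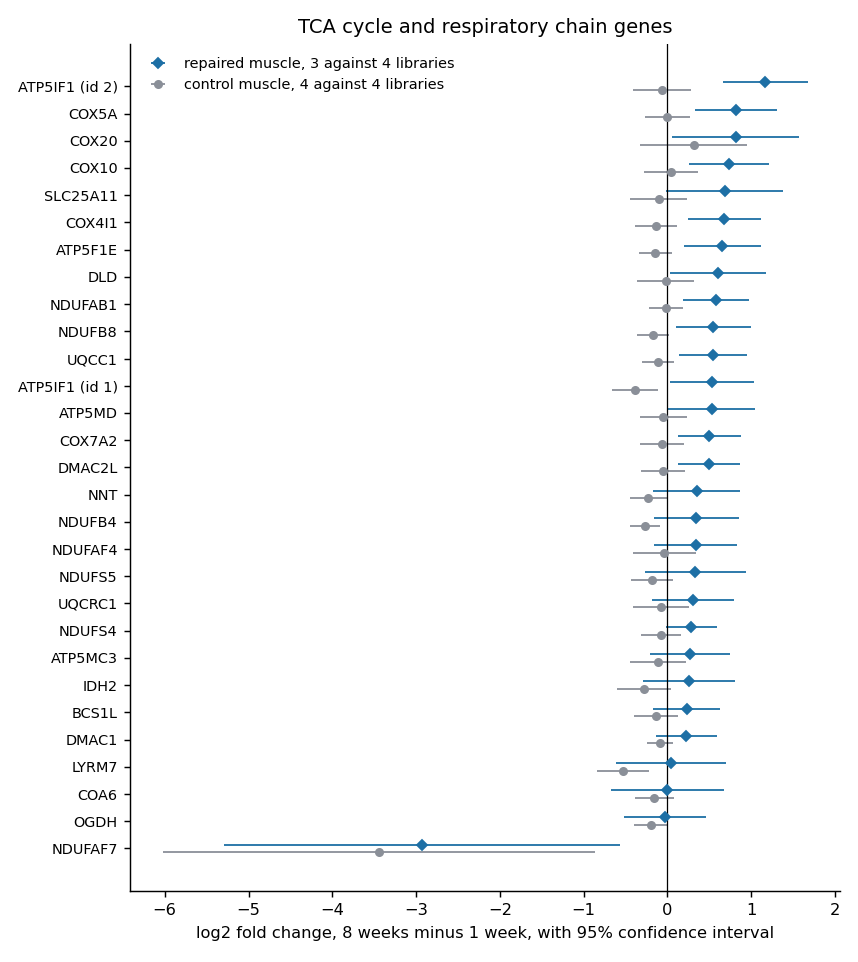
Log2FC between 8 weeks and 1 week (horizontal, with 95% confidence interval) for the 29 genes of the TCA cycle and respiratory chain, in repaired muscle (diamonds) and in control muscle (circles). In repaired muscle 27 of 29 lie above 0, with a median of 0.50, whereas in control muscle 26 of 29 lie below 0. ATP5IF1 has 2 lines because 2 gene identifiers carry that symbol.

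Other mitochondrial lists pointed the same way with smaller sizes. Of 33 genes of the mitochondrial ribosome and its translation factors, 30 were above 0, with a median log2FC of 0.29, and 6 (18.2%) were higher without overlap. Median values for this list in single libraries, taken relative to the mean of the 8 controls on the log2 scale, were -0.14, -0.06 and -0.23 at 8 weeks and -0.34 to -0.50 at 1 week. MRPS5, of the small subunit, measured 38.7, 45.6 and 39.3 CPM at 8 weeks and 25.4, 31.8, 24.5 and 29.8 at 1 week, against 40.7 to 53.5 in controls. Its log2FC was 0.56 ± 0.15, with an adjusted p of 0.338, or 0.0344 in the fit of 15 libraries. MRPL19 of the large subunit had a log2FC of 0.59 ± 0.16. Fatty acid oxidation was more mixed, with 7 of 11 genes above 0 and 4 below, the lowest being SLC25A20 at -0.30. Of the 11, 4 (36.4%) were higher without overlap. The median of the list was 0.17, or 0.04 without rabbit 2 and 0.27 without rabbit 1. ETFA, which hands electrons from this pathway to the respiratory chain, lay at 154 to 204 CPM against 100 to 153 (log2FC 0.55 ± 0.19). Without TMM the medians were 0.15 for the TCA cycle and respiratory chain, -0.05 for the mitochondrial ribosome and -0.16 for fatty acid oxidation, each above the -0.37 of all genes, and the latter 2 thus turned below 0.

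Glycolysis and glycogen genes were mixed. Of 17, 12 were above 0 (median 0.29, and -0.04 without TMM), 2 (11.8%) higher and 1 (5.88%) lower without overlap. Leaving out rabbit 6 took the median to 0.07 and leaving out rabbit 5 to 0.49. HK2, the muscle hexokinase, was the one that was lower, at 37.4 to 41.4 CPM against 49 to 66, and both groups lay under most controls, 57.4 to 117. Its log2FC was -0.55, and -0.32 in the controls. TIGAR, which lowers the flux of glycolysis, measured 31.1, 21.9 and 23.4 CPM at 8 weeks and 17.2, 6.44, 16 and 10.8 at 1 week (log2FC 1.08 ± 0.33), and was 0.52 higher in the controls. PRKAG3, a regulatory subunit of AMP-activated kinase typical of fast fibers, overlapped, with 14.7 to 41.5 CPM at 8 weeks and 37.4 to 157 at 1 week (log2FC -1.49 ± 0.53).

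Structural genes of the sarcomere, Z-disc and triad were above 0 for 18 of 25, with 5 (20%) higher and 1 (4%) lower without overlap and a median of 0.19. The list did not keep its direction with the library of rabbit 3, at a median of -0.04, and was at -0.14 without TMM and 0.32 without rabbit 1. LDB3, which anchors alpha-actinin at the Z-disc, measured 1859, 2155 and 1757 CPM at 8 weeks and 872, 644, 827 and 1378 at 1 week, against 1684 to 2339 in controls. All 3 libraries of 8 weeks lay in the control range and all 4 of 1 week under it. The log2FC was 1.08 ± 0.27 (adjusted p = 0.338, and 0.0213 in the fit of 15 libraries). MYOM2, a protein of the M-band, had a larger log2FC, 1.75 ± 0.77, with wider spread: 2872, 4504 and 3333 CPM at 8 weeks against 1974, 216, 1119 and 2107 at 1 week. SYNM, an intermediate filament protein, lay at 592 to 673 CPM against 313 to 536 (log2FC 0.68 ± 0.21). SPTB, beta spectrin, was lower at 8 weeks, at 198 to 228 CPM against 296 to 348, but its log2FC of -0.64 ± 0.15 had a counterpart of -0.52 in the controls. MYH8, the perinatal myosin of developing and regenerating fibers, spread over 64 to 885 CPM at 1 week and 59.6 to 282 at 8 weeks (log2FC -1.14 ± 0.96), and the groups could not be separated.

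Among 15 myogenic regulators and growth factors, 10 were below 0 (median -0.25, and -0.002 without rabbit 6 or -0.44 without rabbit 5), 3 (20%) lower and 1 (6.67%) higher without overlap. IGF1, a growth factor for muscle fibers, measured 5.01, 5.84 and 5.71 CPM at 8 weeks and 7.69, 11.6, 17.0 and 9.15 at 1 week, against 2.57 to 4.18 in controls. The libraries of 8 weeks lay between the controls and the libraries of 1 week, with a log2FC of -0.99 ± 0.32 (adjusted p = 0.352 in limma-voom). DESeq2 on the 7 libraries gave IGF1 an adjusted p of 0.0468, and the fit of 15 libraries 0.0539. HGF, which activates satellite cells, lay at 1.41 to 1.62 CPM against 1.69 to 5.78, and FGFR4, a receptor for fibroblast growth factors, at 2.73 to 4.74 against 5.85 to 30.5. VGLL2, a cofactor of TEAD transcription factors in muscle, was higher at 8 weeks, at 43.3 to 95.7 CPM against 22.7 to 41.3 (log2FC 1.09 ± 0.31), and was 0.54 higher in the controls too. MYF6, a myogenic transcription factor of mature fibers, was level between the times, with a log2FC of -0.04 and a 95% confidence interval from -0.46 to 0.39. FGF6, a muscle fibroblast growth factor, overlapped widely, at 3.98 to 15.5 CPM against 1.86 to 10.02.

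**Figure D4:**
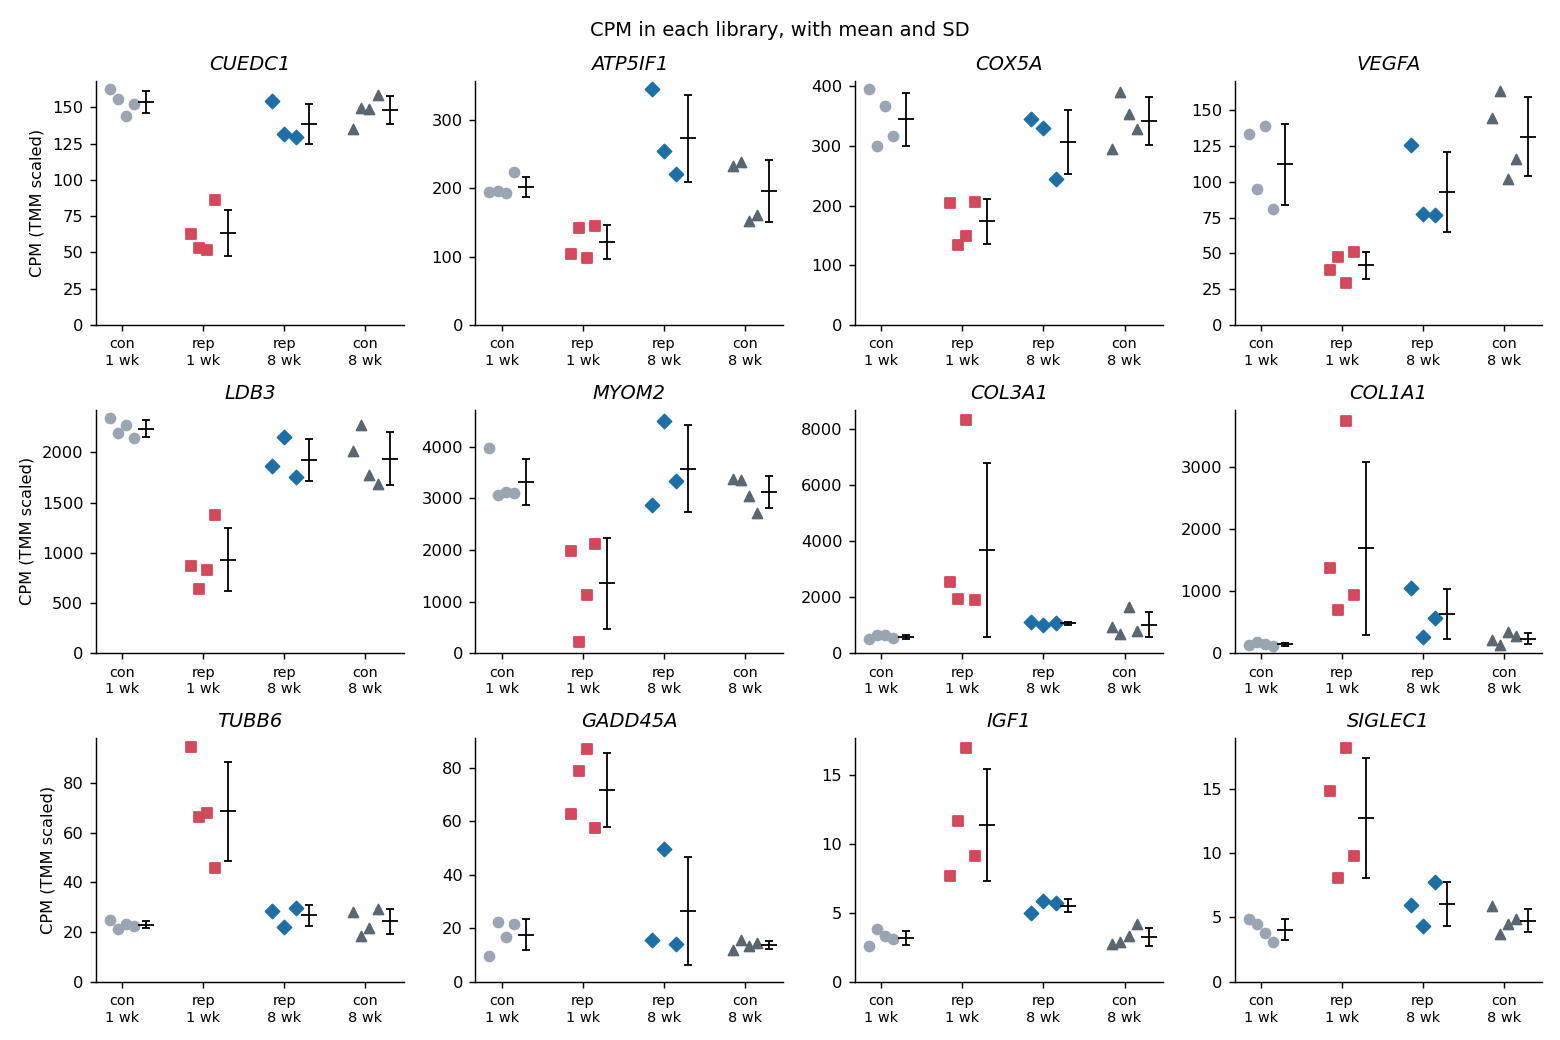
CPM of 12 genes in each of the 15 libraries (points), with mean and SD beside each group, for control (con) and repaired (rep) muscle at 1 and 8 weeks. CUEDC1, COX5A, VEGFA, LDB3 and MYOM2 at 8 weeks lie above every repaired library of 1 week and near the controls, and COL3A1, TUBB6, IGF1 and SIGLEC1 lie below them. ATP5IF1 is the identifier with the lower p.

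Genes of the extracellular matrix were lower at 8 weeks in most of their lists, with large spread at 1 week. Of 6 fibrillar collagen genes, 5 were below 0, with a median log2FC of -0.90. Against 6.53% of all genes, 1 (16.7%) was lower without overlap. That gene was COL3A1, the collagen of early repair tissue, at 1103, 1008 and 1083 CPM at 8 weeks and 2526, 1935, 8294 and 1896 at 1 week. Controls lay at 506 to 1654, and the highest value by far, 8294, came from rabbit 7. The log2FC was -1.47 ± 0.45, with an unadjusted p of 0.0108 and an adjusted p of 0.352 in limma-voom. DESeq2 on the 7 libraries gave COL3A1 an adjusted p of 0.0223, and the fit of 15 libraries 0.0665. COL1A1, of the main fibrillar collagen, measured 1058, 255 and 567 CPM at 8 weeks and 1378, 699, 3749 and 942 at 1 week, so the groups overlapped (log2FC -1.32 ± 0.63). Without rabbit 7 the median of the list was -0.47.

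Basement membrane and other collagen genes were below 0 for 17 of 21 (median -0.43), and 6 (28.6%) were lower without overlap, against 6.53% of all genes. The 21 identifiers carried 20 symbols, as NID1 occurs more than once. COL6A2, of the collagen around muscle fibers, measured 161, 166 and 193 CPM at 8 weeks and 215, 326, 560 and 272 at 1 week, against 87.6 to 147 in controls. Its log2FC was -0.90 ± 0.29. COL4A3 of basement membrane lay at 1.87 to 3.60 CPM against 4.44 to 10.6 (log2FC -1.37 ± 0.43), and LAMA3, a laminin chain, at 4.30 to 7.46 against 8.29 to 10.5 (log2FC -0.75 ± 0.21). Enzymes that fold and crosslink collagen were below 0 for 11 of 13 (median -0.30, and -0.14 without rabbit 2 or -0.47 without rabbit 5) with 3 (23.1%) lower without overlap, FKBP10, PPIB and CRTAP, all of which act on new collagen in the endoplasmic reticulum. FKBP10 lay at 9.26 to 18.9 CPM against 21.6 to 49.9, a log2FC of -1.04 ± 0.36.

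Matrix glycoproteins and proteoglycans differed less as a list. Of 37, 25 were below 0, the median was -0.25, and the 2 (5.41%) that were lower without overlap were no larger a share than among all genes. Leaving out rabbit 2 at 8 weeks brought the median to -0.07 and leaving out rabbit 4 to -0.50. The 2 genes were LTBP1 and SPON1. LTBP1, which holds latent TGF-beta in the matrix, measured 32.4, 37.4 and 34.7 CPM at 8 weeks and 132, 46.6, 96.9 and 52.3 at 1 week, with a log2FC of -1.12 ± 0.34 that passed in the fit of 15 libraries (adjusted p = 0.0497). Of 23 genes of TGF-beta and BMP signaling, 18 were below 0 (median -0.26, and -0.15 without rabbit 2), 4 (17.4%) lower and 1 (4.35%) higher without overlap. Of 22 matrix proteases and inhibitors, 16 were below 0 (median -0.33, and -0.22 without rabbit 7) and 3 (13.6%) lower without overlap. HTRA1, a secreted serine protease, was one of these, at 48 to 61.4 CPM against 68.9 to 126 (log2FC -0.71 ± 0.21). Markers of fibroblasts and fibro-adipogenic progenitors were below 0 for 9 of 14 (median -0.27, and -0.06 without rabbit 7 or -0.49 without rabbit 4). Their summed level was 849 to 1387 CPM at 8 weeks and 846 to 1264 at 1 week, and thus overlapped fully. OSR1, a transcription factor of these progenitors, lay at 1.84 to 3.23 CPM against 3.25 to 7.44. Tendon markers had a median of -0.06 over 7 genes, which was -0.33 without rabbit 5 and 0.29 without rabbit 6, and their summed level was 286 to 844 CPM at 8 weeks, 344 to 544 at 1 week and 57.9 to 298 in controls. CILP, a cartilage and tendon matrix protein, lay at 89.3 to 155 CPM at 8 weeks and 127 to 210 at 1 week (log2FC -0.66 ± 0.26), while its controls were 0.88 higher at 8 weeks.

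Most genes of the immune lists were below 0, with none passing in the 7 or the 15 libraries, and the medians moved with single rabbits. Of 28 macrophage and myeloid markers, 24 were below 0 (median -0.53), but 2 (7.14%) were lower without overlap, close to the share among all genes, and without rabbit 7 the median was -0.21. Their summed level was 94.4 to 180 CPM at 8 weeks, 123 to 292 at 1 week and 57.8 to 143 in controls. The 4 above 0 were MRC1 (log2FC 0.31), C1QC (0.24), C1QB (0.13) and FCGR2B (0.08). CSF1R, at -0.08, had a 95% confidence interval from -1.22 to 1.06, too wide to call it level. SIGLEC1, a receptor of tissue macrophages, measured 5.97, 4.35 and 7.78 CPM at 8 weeks and 14.8, 8.05, 18.2 and 9.79 at 1 week, against 3.09 to 5.86 in controls (log2FC -1.03 ± 0.36, adjusted p = 0.373). CORO1A, an actin-binding protein of white blood cells, lay at 1.05 to 1.58 CPM against 2.08 to 7.37. CD163, a scavenger receptor of macrophages, overlapped, at 2.64 to 6.40 CPM against 2.48 to 10.04, and its log2FC of -0.35 turned to 0.01 without rabbit 7. Lymphocyte markers were few and low. Of 9, 2 (22.2%) were lower and 1 (11.1%) higher without overlap, against 6.53% and 6.37% of all genes. Their median of -0.27 was 0.02 without rabbit 7 and -0.67 without rabbit 6. The higher one was IRF4, a transcription factor of lymphocytes, at 1.05 to 1.49 CPM against 0.179 to 0.640.

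Of the 32 lists, interferon response had the largest share of genes lower without overlap. Of 16, 15 were below 0 (median -0.66) and 6 (37.5%) were lower without overlap, against 6.53% of all genes: EPSTI1, PARP12, MOV10, PML, SHFL and ZNFX1. PML, of the nuclear bodies that interferon induces, measured 4.22, 4.29 and 5.27 CPM at 8 weeks and 8.70, 5.58, 6.33 and 6.91 at 1 week, against 3.86 to 4.82 in controls (log2FC -0.54 ± 0.22, and 0.01 with the library of rabbit 3). IRF7, a transcription factor that interferon induces, had 17.9 CPM in rabbit 5 and 1.32 to 5.05 in the other rabbits of 1 week. In the list as a whole, the library level relative to controls was -0.03 to 0.07 at 8 weeks and 1.31, 0.11, 0.55 and 0.41 at 1 week in rabbits 5 to 8, and the control shoulder of rabbit 5 was also the highest control, at 0.48. Without rabbit 5 the median log2FC was -0.44. Subunits of the immunoproteasome and genes of antigen processing were below 0 for 10 of 10 (median -0.86), with 1 (10%) lower without overlap. PSMB9 lay at 1.13 to 1.37 CPM against 1.25 to 4.90, and PSMB8 at 2.98 to 3.60 against 3.58 to 9.76, its log2FC of -0.76 being 0.01 with the library of rabbit 3. With the library of rabbit 3, 3 of these 10 were above 0 and the median was -0.35. In the controls PSMB9 was at -0.63 and PSMB8 at -0.47 between the times, and 7 of the 9 list genes tested there were below 0 (median -0.13). The 14 subunits of the constitutive proteasome differed little, with a median of 0.10 that was -0.24 without TMM, and in 0 of them did the groups separate.

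**Figure D5:**
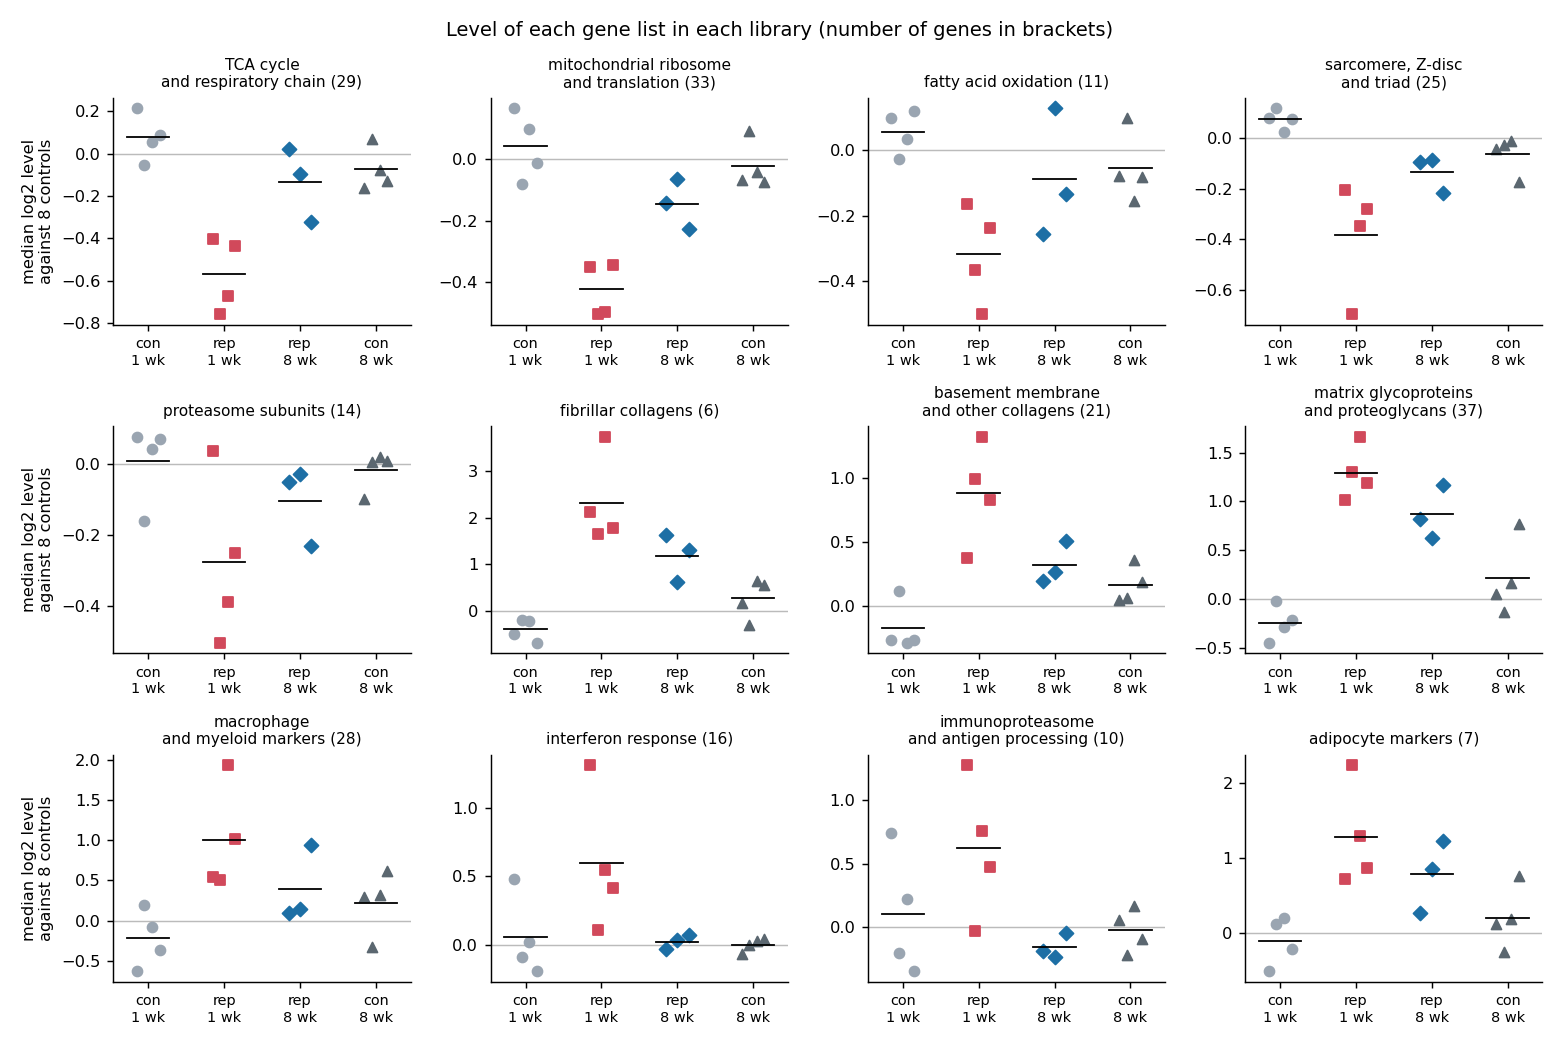
Level of 12 gene lists in each of the 15 libraries, as the median over the list of log2 CPM relative to the mean of the 8 control libraries, with the mean of each group as a bar, for control (con) and repaired (rep) muscle at 1 and 8 weeks. For the TCA cycle and respiratory chain the repaired libraries lie at -0.76 to -0.40 at 1 week and -0.32 to 0.02 at 8 weeks, and for interferon response at 0.11 to 1.31 and -0.03 to 0.07.

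Adipocyte and lipid genes did not separate the times. All 7 adipocyte markers measured were below 0 (median -0.46, and -0.12 without rabbit 1 or -0.73 without rabbit 4), yet none was lower without overlap. ADIPOQ, the adipocyte hormone adiponectin, measured 252, 308 and 327 CPM at 8 weeks and 504, 811, 458 and 235 at 1 week, against 117 to 232 in controls. Every repaired library of 8 weeks thus stayed above the controls, and the log2FC of -0.65 ± 0.35 had an adjusted p of 0.512. A pair of identifiers carry the symbol SCD, the fatty acid desaturase, and are given as uncertain since reads of near copies could be split. One measured 79.6, 176 and 159 CPM at 8 weeks and 209, 724, 140 and 303 at 1 week (log2FC -1.14 ± 0.51), and the other had a log2FC of -0.89 ± 0.43. Fatty acid synthesis and desaturation had a median of -0.13 over 9 genes, which turned to 0.22 without rabbit 6 and was -0.31 without rabbit 8, and sterol synthesis and uptake 0.06 over 8, or -0.23 without TMM. SREBF2, the transcription factor of sterol synthesis, had a log2FC of 0.23 ± 0.16 that was -0.11 without TMM. MC5R, a melanocortin receptor, overlapped, at 1.23 to 7.73 CPM against 5.08 to 8.62.

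Vessel genes were largely level, with VEGFA apart. VEGFA, the main growth factor of blood vessels, measured 125, 77.3 and 76.6 CPM at 8 weeks and 38.6, 47.5, 29.5 and 50.8 at 1 week, against 81.0 to 164 in controls. The libraries of 8 weeks lay above all those of 1 week and rabbit 1 was within the control range while rabbits 2 and 4 were just under it, with a log2FC of 1.15 ± 0.25 (adjusted p = 0.319, and 0.0344 in the fit of 15 libraries). ANGPT1, a ligand that steadies vessels, was level, with a log2FC of 0.14 and a 95% confidence interval from -0.29 to 0.58, and its direction flipped without TMM. The 17 endothelial markers had a median of 0.03, or -0.30 without TMM, and a summed level of 592 to 647 CPM at 8 weeks and 621 to 732 at 1 week. VWF, the clotting factor made by endothelium, was the 1 that was lower without overlap, at 136 to 150 CPM against 171 to 264. That share, 5.88%, was no larger than the 6.53% of all genes. Pericyte and smooth muscle markers were below 0 for 14 of 15 (median -0.30, and -0.18 without rabbit 7). Only 1 (6.67%), MCAM, an adhesion molecule of vessel walls, was lower without overlap, close to the share among all genes. The exception, GUCY1B1, a subunit of the receptor for nitric oxide, had 25.6, 64.5 and 29.6 CPM against 15.4 to 18.1 (log2FC 1.15 ± 0.30) and was 0.78 higher in the controls. The 4 lymphatic markers had a median of -0.35, or -0.06 without rabbit 7 and -0.70 without rabbit 5, and overlapped, FLT4, the receptor of lymphatic endothelium, with a log2FC of -0.18 ± 0.22.

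GADD45A, a stress gene that is also known from denervated muscle, was lower at 8 weeks, at 15.5, 49.8 and 14.3 CPM at 8 weeks and 62.7, 78.8, 87.1 and 57.4 at 1 week. Rabbits 1 and 4 lay in the control range, 9.55 to 22.2, and rabbit 2 above it. Its log2FC was -1.66 ± 0.42, with an adjusted p of 0.338 in the 7 libraries, 0.0368 in 15 and 0.0430 in the 33 libraries of all times. Of the 16 immediate early and stress genes, 10 were above 0 and 2 (12.5%) lower without overlap. CDKN3, a phosphatase of the cell cycle, lay at 1.97 to 2.55 CPM against 3.75 to 4.65 (log2FC -0.98 ± 0.22), while the 29 genes of cell cycle and DNA replication had a median of -0.13, which was 0.05 without rabbit 7 and -0.21 without rabbit 1. CKAP4, of the endoplasmic reticulum, lay at 9.38 to 11.5 CPM against 12.3 to 23.0, and the median of that list was -0.13, or -0.02 without rabbit 7 and -0.21 without rabbit 4. NR1D2, a repressor of the circadian clock, overlapped, at 358 to 525 CPM against 256 to 379, and its log2FC of 0.59 was -0.42 with the library of rabbit 3. CADM3, an adhesion molecule of nerve, was lower without overlap at 5.09 to 9.01 CPM against 9.20 to 14.3, and XK, a membrane protein of red blood cells, higher at 12.2 to 12.7 against 9.20 to 10.9, although its log2FC of 0.26 was -0.08 without TMM and -0.65 with the library of rabbit 3.

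The same comparison was made in control muscle, which had no repair. limma-voom called 0 (0%) of 11229 genes between 8 weeks and 1 week, with 1079 at an unadjusted p under 0.05, while edgeR called 1 and DESeq2 92. In the controls 356 genes (3.17%) were higher and 272 (2.42%) lower at 8 weeks without overlap, though with 4 against 4 libraries. Groups of 4 against 4 separate less often by chance than 3 against 4, so these shares cannot be set against those of repaired muscle. Most matrix and macrophage genes had a log2FC above 0 in the controls. The medians were 0.74 for fibrillar collagens, 0.55 for matrix glycoproteins and proteoglycans and 0.51 for macrophage and myeloid markers, with 6 of 6, 34 of 36 and 25 of 26 genes above 0. The same 3 lists had medians below 0 in repaired muscle. In the controls only 2, 7 and 1 of their genes were higher without overlap, and the list levels of the libraries overlapped. Rabbit 2 of 8 weeks, at -0.28 for fibrillar collagens and -0.33 for macrophage markers, lay below rabbits 6 and 7 of 1 week in both.

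The difference between the repaired and the control values, (8 weeks minus 1 week in repaired muscle) minus (8 weeks minus 1 week in control muscle), was tested in 1 fit of the 15 libraries, which takes both shoulders of 7 rabbits and the control shoulder of rabbit 3. limma-voom called 0 (0%) of 12175 genes, with 1737 at an unadjusted p under 0.05. With the rabbit as a replicate block, 2 genes were called, both lower, and with an estimated within-rabbit correlation of 0.250 there were 42, 25 higher and 17 lower. Without the block, the median difference was 0.59 for the TCA cycle and respiratory chain, with 29 of 29 above 0, and -1.61, -0.82 and -0.98 for fibrillar collagens, matrix glycoproteins and proteoglycans, and macrophage and myeloid markers, with 6 of 6, 33 of 37 and 27 of 28 below 0. ATP5IF1 (difference 1.25, adjusted p = 0.148) and LDB3 (1.31, 0.146) were among the 42 genes, as were CUEDC1 (1.21, 0.110) and, on the lower side, TUBB6 (-1.39, 0.145), HTRA1 (-1.08, 0.145) and COL6A2 (-1.36, 0.145), each adjusted p being that without the correlation. COL3A1 was not among them, with a difference of -2.19 and an adjusted p of 0.158, or 0.0535 with the correlation.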

How the data were processed

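Poly(A) RNA of 34 supraspinatus samples was sequenced with single reads from a stranded kit. The authors checked reads with FastQC, aligned them with STAR v2.5.1a to OryCun2.0 and estimated counts per gene with RSEM v1.3.0 on Ensembl annotation. The deposited values are these expected counts, not whole numbers and not scaled. Single reads assigned by RSEM can be shared between near-identical copies.

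Here genes with CPM over 1 in at least 1 library of a fit were kept, scaled by TMM and tested with limma-voom (~0+group, empirical Bayes; R 4.3.3, limma 3.58.1, edgeR 4.0.16), with p-values adjusted by Benjamini-Hochberg within each fit. Genes with adjusted p under 0.05 count as called, and those that also have an absolute log2FC above 1 as DE. SEs are those of the fit. edgeR quasi-likelihood and DESeq2 1.42.0 used rounded counts. CPM values printed, and overlap between groups, use TMM over the 15 libraries of 1 and 8 weeks. List levels use log2 CPM with a prior count of 2. Scripts were tested on simulated data. Figures were drawn with matplotlib 3.10.9.

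Symbols were read from the study's supplementary data for 3306 of the 12112 genes tested, and the rows at hand there are not a random draw of genes (6.5% and 7.47% of the 3306 were higher and lower without overlap). The 32 gene lists and the comparison were chosen with earlier results of these data known. The rule for naming genes took, since none was called, the 10 of lowest p among genes that have a symbol, do not overlap and average 1 or more in log2 CPM, the member of lowest p of each list, and 11 further genes (COL1A1, COL3A1, ADIPOQ, SCD, MYF6, MYH8, IGF1, FGF6, ANGPT1, CD163 and PSMB9). Other list members were named after their values were seen.

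Both shoulders of a rabbit share an animal, which pairs them in the test of the difference. After group means were removed, the repaired and control libraries of 1 rabbit correlated at 0.208 to 0.461 over 7 rabbits. Repaired libraries of 8 weeks and 1 week come from different rabbits, so that comparison has no pairs. The column count not matched to a sample was 0. No sequence was used here.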

Additional observations from a re-analysis of the deposited data

Results flagged for a closer look

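In groups of 4 libraries, 18 of 246 sets of values held a library far from the other 3 by Dixon's test, where chance alone marks about 1 in 20 sets. Sets of 3 libraries, which include repaired muscle at 8 weeks, were not tested.

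In repaired muscle at 1 week, all 3 such values came from rabbit 7. Its COL3A1 was 8290 CPM against 1900 to 2530 in the other rabbits, its FKBP10 was 49.9 against 21.6 to 25, and its level of the list of ER folding and secretory path genes was 0.735 against 0.136 to 0.216. Its control shoulder was also the highest of that list among controls of 1 week, at 0.0527 against -0.055 to -0.0377.

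In control muscle at 1 week, rabbit 6 stood apart in collagen folding and crosslinking enzymes (0.0239 against -0.212 to -0.177), basement membrane and other collagens (0.119 against -0.287 to -0.262), matrix proteases and inhibitors (0.00214 against -0.229 to -0.206) and proteasome subunits (-0.161 against 0.0429 to 0.0768). Its CILP was 30 CPM against 34.8 to 35 and its MYF6 220 against 160 to 169. Rabbit 8 stood apart in PRIMPOL (4.89 CPM against 1 to 1.46), ATP5IF1 (224 against 194 to 196) and angiogenic ligands (-0.315 against -0.056 to -0.0386).

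In control muscle at 8 weeks, rabbit 3 stood apart in SMTNL2 (68.8 CPM against 35.5 to 39.2), endothelial markers (-0.0356 against 0.0715 to 0.0918) and cell cycle and DNA replication (0.0989 against -0.0299 to -0.00914). GUCY1B1 was 57.2 CPM in rabbit 2 against 30.9 to 33, and proteasome subunits were at -0.0996 in rabbit 1 against 0.00442 to 0.0206.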

How the results depend on the processing

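In repaired muscle the count of called genes was 0 with RLE factors, with other expression filters, without scaling beyond the total, with edgeR, with rabbit 3 kept and without each replicate. DESeq2 called 299 (135 DE), 15 libraries as 4 groups 274 (63 DE), 33 libraries as 8 groups 11 (8 DE) and sample quality weights 2 (2 DE). In control muscle edgeR called 1 and DESeq2 92 (17 DE), and leaving out each replicate gave 0 to 3 called and 0 to 3 DE. For the difference DESeq2 called 308 (127 DE), and leaving out each replicate gave 0 to 30 called and 0 to 25 DE, the most without rabbit 8 of repaired muscle at 1 week. With the rabbit as replicate block the difference had 2 called (2 DE), and with an estimated correlation of the paired shoulders 42 (23 DE). Genes higher and lower without overlap were 150 and 2364 without scaling, and 279 and 346 with rabbit 3 kept. The cause was not tested.

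With rabbit 3 kept, the log2FC of TRAK2 was -0.26, GHITM -0.19, PSMB8 0.013, PML 0.012, XK -0.65 and NR1D2 -0.42, each turned from the sign given above. Without scaling SREBF2 was -0.11, XK -0.082 and ANGPT1 -0.19, and with quality weights MYF6 was 0.045. Leaving out each replicate took MYF6 from -0.13 to 0.076 and CD163 from -0.76 to 0.011. Of 50 named genes, 20 passed with DESeq2, 17 with 15 libraries and 1 with 33. The 3 libraries at 8 weeks limit the precision of every value.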

Other observations

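Single rabbits stood out in repaired muscle at 1 week, in genes chosen after their values were seen. Rabbit 6 had the lowest levels of genes of fast fibers, with TNNT3 at 340 CPM against 3582 to 8364 in the other rabbits, ATP2A1 at 3012 against 12606 to 23600 and MYOM2 at 216 against 1119 to 2107, and it had the highest ADIPOQ (811 CPM) and SCD (724). Rabbit 7 had the highest COL3A1 (8294 CPM) and COL1A1 (3749). Rabbit 5 had the highest IRF7 (17.9 CPM), and its control shoulder had the highest IRF7 of the controls, at 5.20 CPM against 0.692 to 1.58. Different rabbits thus gave the extremes of the fiber, matrix and interferon genes at 1 week.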
